A study of Mus musculus with 2 samples.

Results

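The loops of the progesterone receptor gene Pgr were examined in Hi-C data from the mouse uterus, and 23 of the 26240 loops listed for diestrus and 24 of the 24131 listed for estrus belonged to this locus. A loop is a pair of 10 kb stretches of 1 chromosome, its anchors, that were ligated together more often than their surroundings. Loops were taken from chromosome 9 of mm10 if at least 1 anchor lay inside 8400000 to 9600000, a stretch of 1.2 Mb around Pgr, which (gene ID 18667) spans 8898900 to 8968611 on the forward strand. The data are 1 Hi-C library (n = 1) from the uterus of untreated, intact CD-1 mice aged 2 months in diestrus, the progesterone-dominated stage, and 1 (n = 1) from such mice in estrus, after the estrogen peak. CD-1 is an outbred stock, and the labels leave unsaid how many animals went into each library. Contacts are read pairs joining both anchors, and strength is the observed contacts over those expected from the ring of pixels around the loop (the donut background). No replicates exist, so no p-value is given. Intervals in brackets are at 95%. Those of contacts, strength and ratios of single loops cover counting error only, with the expected contacts taken as exact. Those of medians and shares are taken over loops as independent draws, although loops share anchors. In whole uterus, a change in the mixture of cells and a change of contacts per cell cannot be told apart, and lists of contacts hold no expression values with which to check the tissue.

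Pgr encodes a nuclear receptor that binds progesterone and then acts as a transcription factor. It is made as a long and a short isoform, PR-B and PR-A, and its expression in the uterus is controlled by estrogen through the estrogen receptor. Loops of this kind commonly form where cohesin extrudes chromatin until it meets CTCF bound at convergent sites, and they can bring distal elements close to a promoter or set the limits of a domain. The window holds 3 protein-coding genes. Trpc6, a calcium-permeable cation channel, lies at 8543867 to 8680752 before Pgr. Arhgap42, a gene known from smooth muscle, lies at 8992507 to 9239027 behind it on the reverse strand. The noncoding gene Gm32014 (8644078 to 8740988, reverse strand) fills part of the interval between Trpc6 and Pgr.

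The start of Pgr lies just outside an anchor bin. The start site in the RefSeq promoter table (build GRCm38.p6) is base 8899833, and the anchor bin that covers the first part of the gene, 8900001 to 8910000, begins 168 bases further on. The bin that holds the start site itself, 8890001 to 8900000, had 0 loops in either library. Distances from the start of Pgr given elsewhere are counted from the gene's first annotated base, 8898900, in that same bin. The start of Arhgap42, base 9239027, lies inside the bin 9230001 to 9240000, with 3 loops in diestrus and 5 in estrus. Bins have a fixed width of 10 kb, so the lists cannot tell whether contacts centre on the start of Pgr or beside it. Both promoters are printed because they show these different positions on the grid of bins, that of Arhgap42 having been chosen after its loops were seen. Each runs 5′ to 3′ on the strand of its gene over 300 bases, chr9:8899583-8899882 for Pgr and chr9:9238978-9239277 for Arhgap42, and capitals mark matches to CCCTC, core letters of CTCF sites, on either strand:
Pgr: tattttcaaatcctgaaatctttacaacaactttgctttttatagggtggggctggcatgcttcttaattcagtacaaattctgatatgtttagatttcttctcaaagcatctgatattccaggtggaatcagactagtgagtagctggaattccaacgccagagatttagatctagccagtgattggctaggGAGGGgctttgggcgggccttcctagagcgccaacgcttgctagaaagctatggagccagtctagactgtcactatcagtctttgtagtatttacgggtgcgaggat
Arhgap42: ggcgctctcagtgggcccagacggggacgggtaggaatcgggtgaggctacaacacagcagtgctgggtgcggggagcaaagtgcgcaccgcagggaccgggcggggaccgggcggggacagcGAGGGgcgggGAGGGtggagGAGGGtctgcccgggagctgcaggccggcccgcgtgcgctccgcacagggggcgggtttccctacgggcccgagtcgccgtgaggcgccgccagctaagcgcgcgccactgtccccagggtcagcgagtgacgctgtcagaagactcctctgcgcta
The Pgr promoter held 1 such match, on the opposite strand at bases 194 to 198 as printed, and the Arhgap42 promoter held 3. CCCTC occurs in 66.0% of the 32851 promoters of the same length. AGAACA, a core of progesterone response elements, and AGGTCA, a core of estrogen response elements, were searched on both strands and are in neither sequence. They occur in 19.0% and 16.3% of all promoters. The full estrogen palindrome GGTCANNNTGACC, which overlaps AGGTCA where a further A stands in front of it, is in 0.0700% of promoters and in neither of these. The Pgr promoter is 43.7% G and C, that of Arhgap42 is 72.7%, and the median promoter is 52.7%. These matches describe letters in a window and say nothing of binding.

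Pgr had a loop anchor at either end of the gene, and the same distal stretch was joined to both. The 5′ anchor is the bin 8900001 to 8910000 and the 3′ anchor is 8960001 to 8970000, which holds the gene's last base. The shared upstream anchor, 8700001 to 8710000, lies inside Gm32014 and is centred 194 kb before the start of Pgr. It was joined to the 3′ anchor over 260 kb by 476 contacts in diestrus (434 to 521) against 389 in estrus (351 to 430), the highest number of contacts among the loops of the window in each list. Its loop to the 5′ anchor, over 200 kb, held 362 contacts in diestrus (326 to 401) against 237 in estrus (208 to 269). A loop of 60 kb joined both ends of Pgr to each other, with 398 contacts (360 to 439) and 319 (285 to 356). Diestrus had the higher number in each of these loops. Together they form a triangle of contacts whose corners are the Gm32014 bin and both ends of Pgr, and all 3 sides were listed in both libraries in identical bins.

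In strength, the 260 kb loop stood at 4.91 times its background in diestrus (4.48 to 5.37) against 4.83 times in estrus (4.36 to 5.33). The 200 kb loop stood at 4.21 (3.78 to 4.66) and 3.42 (2.996 to 3.88). The loop between the ends of Pgr was weaker, at 2.34 (2.11 to 2.58) and 2.03 (1.81 to 2.26). Across all listed loops the median strength was 3.28 in diestrus and 3.43 in estrus. The 260 kb and the diestrus 200 kb loop were thus above the median of their list, and the loop between the gene's ends was below it.

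Further partners of Pgr lay on both sides. In all, 7 diestrus and 6 estrus loops had a base of Pgr in an anchor, 4 and 4 of them at the 3′ anchor and 4 and 3 at the 5′ anchor, the loop between the gene's ends counting for both. The 3′ anchor was joined to the bin 8590001 to 8600000 inside Trpc6 over 370 kb, with 76 contacts in diestrus (59.9 to 95.1) against 66 in estrus (51.0 to 84.0). This bin lies within the body of Trpc6 and holds neither of its ends. The 5′ anchor was joined to a second stretch of Gm32014, near that gene's start. In diestrus this partner was the bin 8740001 to 8750000, with 285 contacts (253 to 320), and in estrus the neighbouring bin 8730001 to 8740000, with 199 (172 to 229). Every distal partner of Pgr that both libraries list lies before the gene.

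Loops of Pgr listed in a single library included both that led past the gene. In diestrus the 5′ anchor was joined to 9030001 to 9040000 within Arhgap42, over 130 kb, by 83 contacts (66.1 to 103) at 2.42 times the background. In estrus the 3′ anchor was joined to 9370001 to 9380000, over 410 kb, by 103 contacts (84.1 to 125) at 3.27 times the background. That partner bin holds no annotated gene. The third such loop, of diestrus, ran over 230 kb from 8730001 to 8740000 in Gm32014 to the 3′ anchor, with 247 contacts (217 to 280) at 2.10 times the background. The nearby estrus loop of 260 kb to the same 3′ anchor merged 8 enriched pixels with a radius of 32.5 kb, against 6 pixels and 23.6 kb in diestrus. Its upstream anchor is 20 kb away from that of the diestrus loop, between nearest edges, which is more than the 10 kb allowed for a match, and whether merging accounts for the missing entry was not tested. Only called loops are listed, so an unlisted loop is not an absence of contacts.

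**Figure D1:**
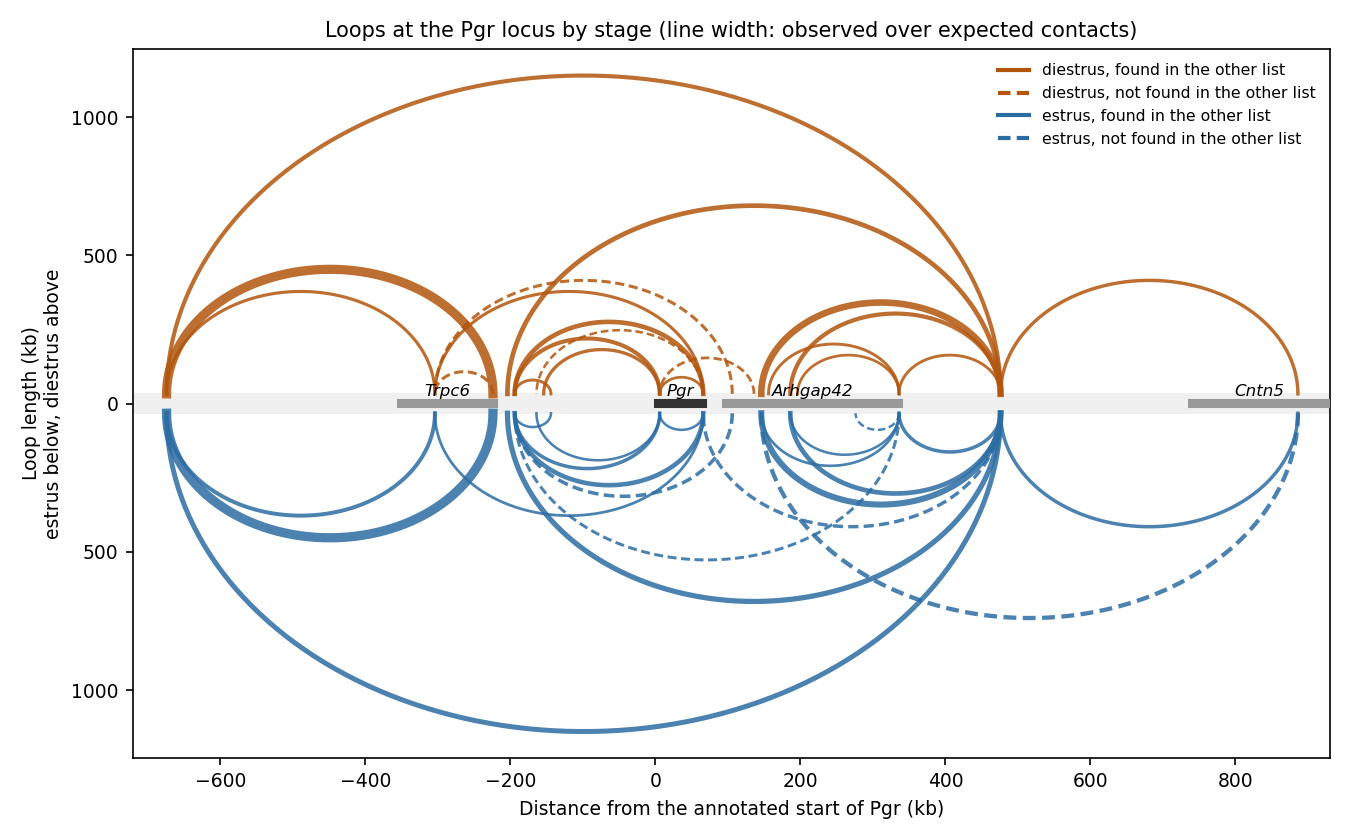
Loops of the Pgr window drawn as arcs, diestrus above and estrus below, against the distance from the start of Pgr in kb, the height giving the loop length in kb and the line width the strength. Solid arcs were found in the other list and dashed arcs were not. The 3 loops per library that are longer than 1200 kb are left out. Both libraries show the triangle joining Pgr to the bin 194 kb before it, the arcs within Arhgap42 and the arcs meeting at the bin 476 kb behind the start of Pgr.

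The arcs of both stages follow the same plan. Of the 23 diestrus loops of the window, 19 were found in estrus, or 82.6% (Clopper-Pearson interval 61.2% to 95.05%), and of the 24 estrus loops 19 were found in diestrus, or 79.2% (57.8% to 92.9%). A loop counted as found where the other list had a loop with both anchors within 10 kb of its own, between nearest edges. The 4 diestrus loops not found made up 17.4%, against 25.6% of all diestrus loops, and the 5 estrus loops not found made up 20.8%, against 19.2% of all estrus loops. Both shares are near their background at this number of loops. The number of loops in estrus over that in diestrus was 0.920 for the genome, 0.960 for chromosome 9 and 1.04 for the Pgr window. Loops of the window had a median length of 290 kb in diestrus and 350 kb in estrus, with median strengths of 3.12 (2.65 to 4.69) and 3.44 (2.36 to 5.37). Stretches of the same length along the genome with at least 1 loop had a median of 17 loops in diestrus and 16 in estrus, and 25.1% and 15.9% of them had at least as many as the Pgr window.

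Beside the Pgr loops named above, the diestrus loops not found in estrus were both anchored at 8590001 to 8600000 in Trpc6. The first, of 80 kb, stayed within Trpc6 with 168 contacts (144 to 195) at 2.75 times the background. The other led over Pgr to 9000001 to 9010000 in Arhgap42 with 55 contacts (41.4 to 71.6) at 2.78 times. The Trpc6 bin thus had 4 loops in diestrus and 2 in estrus. In the estrus list the same Arhgap42 bin was joined to the upstream anchor in Gm32014, over 300 kb, with 199 contacts (172 to 229). This loop stood at 3.46 times the donut background but 1.77 times the largest of its 4 local backgrounds. Both loops to that Arhgap42 bin were calls of 1 pixel, and whether its partners differ by stage was not tested. That upstream anchor was also joined over 530 kb to the bin of the Arhgap42 start, with 44 contacts (32.0 to 59.1) at 2.70 times. The upstream anchor of Pgr had 3 loops in diestrus and 5 in estrus, all of them pointing towards Pgr. Both of its loops listed only in estrus spanned Pgr whole. The remaining estrus loops not found in diestrus were a 60 kb loop from 9170001 to 9180000 within Arhgap42 to the bin of its start, with 262 contacts (231 to 296), and a 740 kb loop from 9040001 to 9050000 within Arhgap42 with 29 contacts (19.4 to 41.6).

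A second centre of loops lay behind Pgr in a bin without an annotated gene. The bin 9370001 to 9380000, centred 476 kb after the start of Pgr, was used by 8 diestrus and 9 estrus loops. Of all anchor bins of the genome, 0.751% in diestrus and 0.234% in estrus had at least as many. Its strongest side ran back over 330 kb to 9040001 to 9050000 within Arhgap42, with 354 contacts in diestrus (318 to 393) against 332 in estrus (297 to 370), at 7.66 and 6.88 times the background. Over 140 kb it was joined to the bin of the Arhgap42 start, with 159 contacts (135 to 186) and 202 (175 to 232). From 9080001 to 9090000 within Arhgap42 it received 129 contacts (108 to 153) and 168 (144 to 195). These 2 loops had more contacts in estrus, unlike those of Pgr. Of the 18 diestrus and 15 estrus anchor bins inside the window, 14 were used in both as identical bins, 4 in diestrus alone and 1 in estrus alone. Of the 4, the bins starting at 8740001, 9050001 and 9090001 belonged to loops that matched an estrus loop in a neighbouring bin. The same shares over all anchor bins of the genome were not computed.

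**Figure D2:**
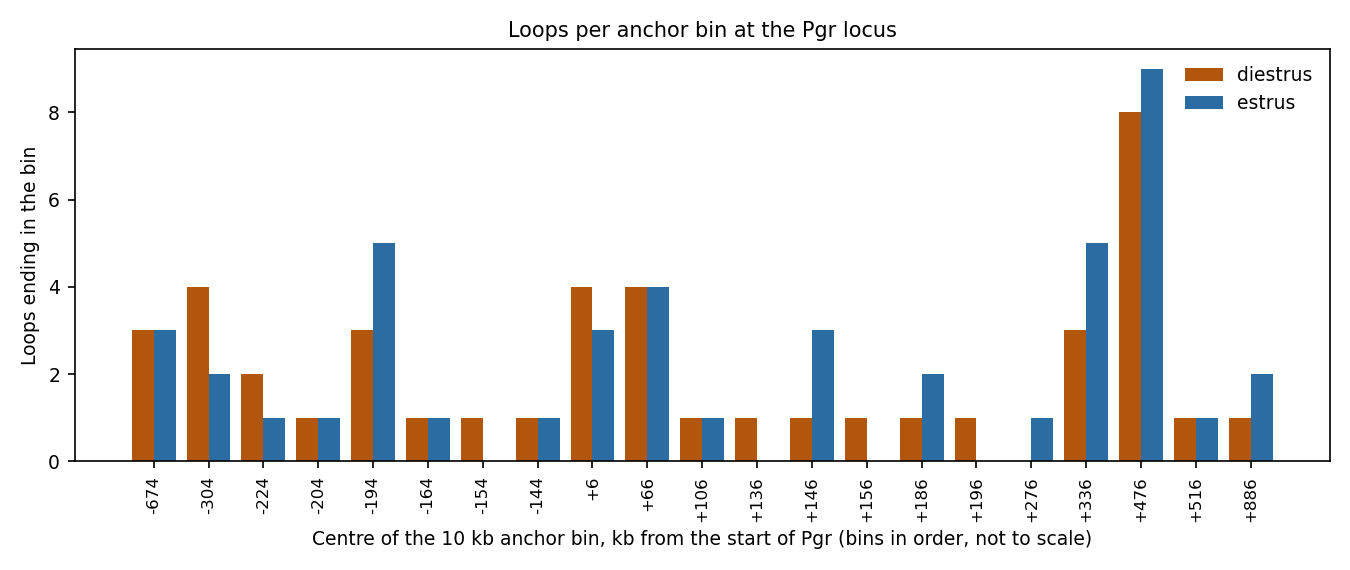
Number of loops ending in each anchor bin up to 1000 kb from the start of Pgr, bins in order of their distance in kb, with 1 bar per library. The bin at 476 kb leads with 8 loops in diestrus and 9 in estrus. The bins at both ends of Pgr have 3 or 4, and the upstream bin at -194 kb has 3 in diestrus and 5 in estrus.

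The caller computes expected contacts separately along the row and the column of a loop, besides the ring, and contacts spread along a line from 1 anchor raise only 1 of these. The vertical expectation exceeded the horizontal one in 7 of the 8 diestrus and 8 of the 9 estrus loops of the bin at 476 kb, the 1150 kb loop described next being the exception in both. The same order held in 6 of the other 15 diestrus and 5 of the other 15 estrus loops of the window, among them both diestrus and all 3 estrus loops within Arhgap42, and in 50.2% of all loops of either list. This count was made after the values were seen and has no test. It pools loops in which the bin at 476 kb is the second anchor, 5 in diestrus and 6 in estrus, with 3 in each list in which it is the first. A line of contacts from the bin would raise 1 expectation in the former and the other expectation in the latter. The pooled count therefore does not measure such a line, whose presence was not tested. For the loop from 9080001 to this bin the vertical and horizontal expectations were 65.6 and 28.7 contacts in diestrus, and 77.8 and 29.3 in estrus. The estrus loop from the 3′ anchor of Pgr to the same bin had 54.5 and 23.1. At the 200 kb loop between Pgr and its upstream anchor the order was not the same in both libraries, with 123 and 114 in diestrus and 82.7 and 102 in estrus.

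Pgr lay within 2 large loops that end in that bin. The first ran over 680 kb from 8690001 to 8700000, next to the upstream anchor, with 89 contacts in diestrus (71.5 to 110) against 106 in estrus (86.8 to 128) at 5.03 and 5.72 times the background. The second ran over 1150 kb from 8220001 to 8230000, before Trpc6, with 32 contacts (21.9 to 45.2) and 42 (30.3 to 56.8) at 4.21 and 5.41 times. No loop of chromosome 9 in either list enclosed this second loop, and 18 loops of the window lay inside it in each library. From inside outwards, the 60 kb loop of Pgr lay in the 260 kb loop, this in the 680 kb loop, and this in the 1150 kb loop. In diestrus 20 of 23 loops and in estrus 20 of 24 were nested in at least 1 other loop of the window. The 1150 kb loop alone held 18 of them in each library, and shares of nested or crossing loops over the whole lists were not computed. The most deeply nested loop had 7 loops around it in diestrus and 9 in estrus. The nesting was not a clean tree, since 16 diestrus and 17 estrus loops crossed another, with only 1 anchor inside it. The 370 kb loop from Trpc6 to the 3′ end of Pgr was among them and crossed the 680 kb loop. Loops that span the whole gene numbered 3 in diestrus and 4 in estrus.

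The first anchor of the 1150 kb loop also held the strongest loop of the window other than its longest. The bin 8220001 to 8230000 lies in the transcribed pseudogene 1700128F08Rik, named for position only, and is outside the window, but its partners are inside. Its loop to 8670001 to 8680000, near the end of Trpc6, held 177 contacts in diestrus (152 to 205) against 162 in estrus (138 to 189), at 11.2 and 11.3 times the background. Its loop into the body of Trpc6, at 8590001, held 86 contacts (68.8 to 106) and 103 (84.1 to 125). Both ended before the upstream anchor of Pgr. Among loops with no anchor in the window, the nearest anchor before it was 8200001 to 8210000, with 4 loops in diestrus and 3 in estrus that all led away from Pgr.

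The bin behind Arhgap42 also had partners megabases away. It was joined to 9780001 to 9790000 in Cntn5, the gene of a neuronal adhesion protein named here outside the rule for gene names, over 410 kb with 58 contacts in diestrus (44.0 to 75.0) against 59 in estrus (44.9 to 76.1). Over 3500 kb it was joined to 12870001 to 12880000, with 23 contacts (14.6 to 34.5) and 24 (15.4 to 35.7). Over 3820 kb it was joined to 13190001 to 13200000, with 33 (22.7 to 46.3) and 30 (20.2 to 42.8). Neither far bin holds an annotated gene. Loops over 2 Mb were 2.03% of the diestrus and 2.20% of the estrus list. A last loop of 33990 kb ran from 9410001 to 9420000 to 43400001 to 43410000, with 19 contacts (11.4 to 29.7) and 23 (14.6 to 34.5) where 0.0579 and 0.0613 were expected. Its strength of 328 and 375 is a ratio to this very small expectation, and where its contacts come from was not tested. In the whole lists, 57 and 60 loops reached a strength of at least 100.

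To compare the stages, loops of both lists were paired and each ratio, estrus over diestrus, was set against the median over all 19399 pairs, which allows for unequal depth. That median was 0.957 for contacts, 0.947 for the donut background and 1.01 for strength, and values below are log2 ratios relative to it. In the window 19 loops were paired, 16 of them in identical bins. Contacts at the 5 paired loops of Pgr were lower in estrus in all 5 cases, with a median centred log2 ratio of -0.26 (range -0.55 to -0.14). They summed to 1597 in diestrus and 1210 in estrus, 0.758 times as many, where all pairs of the genome gave 0.957 times. These loops share anchors and lie close together, so they are not independent of each other.

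For the 200 kb loop to the upstream anchor the contact ratio was -0.55 (-0.79 to -0.31), and 3.27% of all pairs were as low or lower. The loop from the 5′ anchor into Gm32014, in neighbouring bins, had -0.45 (-0.72 to -0.19). The loop between the ends of Pgr had -0.26 (-0.47 to -0.04). The 260 kb loop had -0.23 (-0.42 to -0.03), or -0.20 with an interval that includes 0 (-0.39 to just above 0) when loops were set against pairs of similar length. The 370 kb loop to Trpc6, with the fewest contacts, had -0.14 (-0.64 to 0.36). Besides these, a 50 kb loop that lies wholly before Pgr, from the upstream anchor to 8750001 to 8760000 held 275 contacts in diestrus (243 to 310) against 179 in estrus (154 to 207), a ratio of -0.56 (-0.84 to -0.28).

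**Figure D3:**
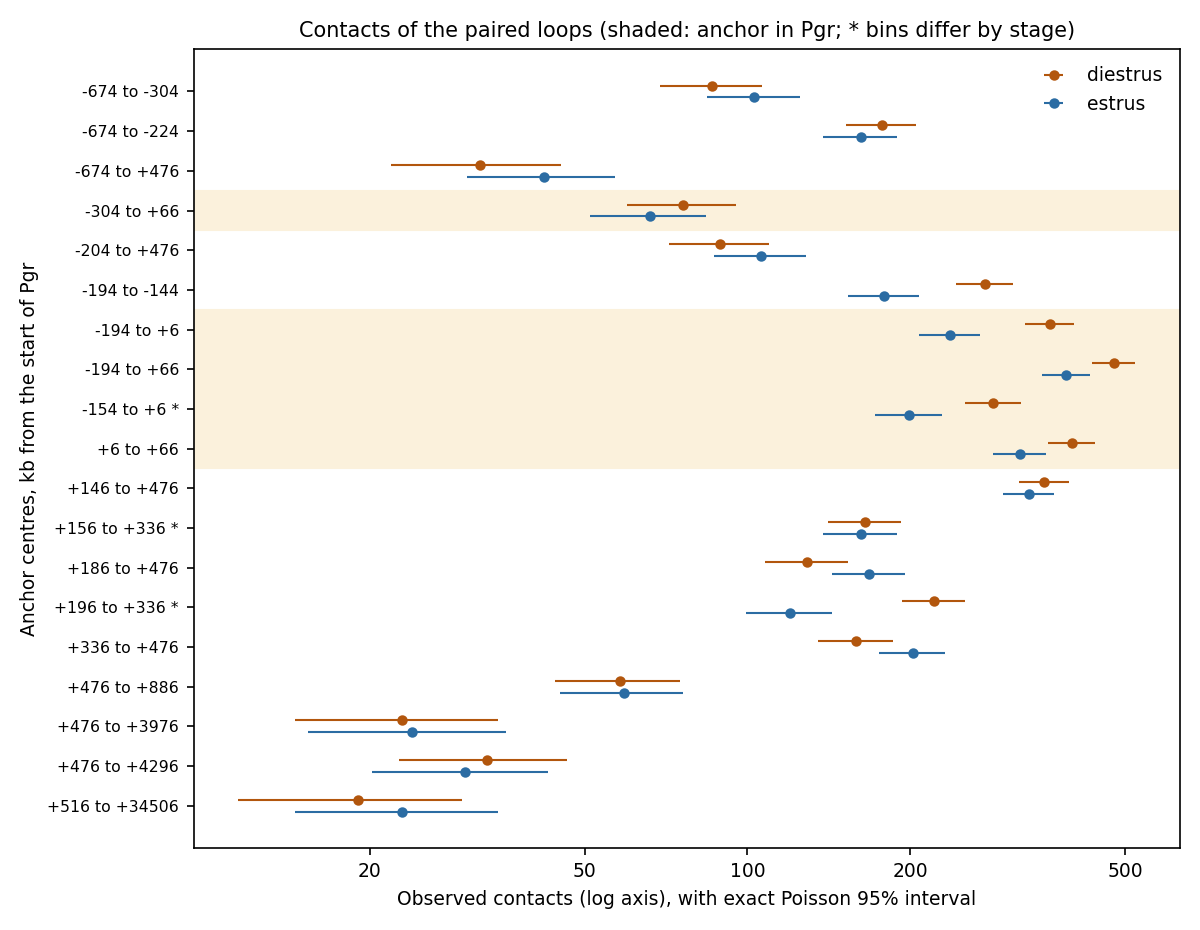
Observed contacts on a log axis, with exact Poisson 95% intervals, for the 19 paired loops in both libraries, ordered by the anchors' distance from the start of Pgr in kb. Shaded loops have an anchor in Pgr, and an asterisk marks neighbouring bins. Before centring, the intervals of the stages do not overlap for 6 loops, all lower in estrus: 4 of the 5 of Pgr, the 50 kb loop before it and the 140 kb loop in neighbouring bins within Arhgap42.

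Over the whole window, the counting interval of the contact ratio lay below 0 for 6 of 19 pairs, against 9.94% of all pairs, and above 0 for 2, against 9.37%. Loops with many contacts have narrower intervals. Of the pairs with at least 400 contacts over both libraries, 5 of 6 in the window lay below 0, against 13.1% of 6881 such pairs, and 0 above, against 15.8%. Of these 5, 4 are loops of Pgr and the other is the 50 kb loop before it. Each shares an anchor with another of them, so they are not 5 independent cases. The limit of 400 contacts was chosen after the data were seen. Over the whole window, the pairs below 0 became 5 with centring by length class and 4 in identical bins, and those above 0 stayed 2. The sixth pair below 0 joined 9090001 to 9100000 in diestrus, or 9080001 to 9090000 in estrus, to the bin of the Arhgap42 start, with 221 contacts (193 to 252) and 120 (99.5 to 143). Its bins differ by library, and its background had a centred log2 ratio of -0.63. The 2 pairs above 0 were those from the bin behind Arhgap42 to the Arhgap42 start, at 0.41 (0.10 to 0.72), and to 9080001, at 0.45 (0.11 to 0.79). The 2 paired loops that span Pgr had 0.46 (-0.24 to 1.17) for 1150 kb and 0.32 (-0.10 to 0.74) for 680 kb.

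The centred ratio of the local background at the 5 paired loops of Pgr was below 0 for 3 and above 0 for 2. The background thus shared the lower contacts of estrus at some of these loops only. For the 260 kb loop the expected contacts went from 97.0 to 80.6, a centred log2 ratio of -0.19, so that its strength ratio was -0.04 (-0.24 to 0.16). For the 200 kb loop the expected contacts went from 86.1 to 69.3, at -0.23, and the strength ratio was -0.31 (-0.56 to -0.07). The loop between the ends of Pgr had a background ratio of -0.04 and a strength ratio of -0.22 (-0.44 to just below 0). The loop from the 5′ anchor into Gm32014 had a background ratio of 0.13 and a strength ratio of -0.59 (-0.85 to -0.32), at different bins. The Trpc6 loop had a background ratio of 0.15 and a strength ratio of -0.29 (-0.79 to 0.20). All 5 strength ratios at Pgr were below 0, with a median of -0.29, while the median over the 19 pairs of the window was -0.04 (-0.22 to 0.18), or 0.01 over the 16 pairs in identical bins. The direction of the 260 kb loop turned to 0.02 with the bottom-left background.

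In strength, 1 pair of the window passed 1.5-fold in favour of diestrus, against 1.56% of all pairs, and 0 in favour of estrus, against 1.64%. The pair that passed was the loop from the 5′ anchor of Pgr into Gm32014, in different bins, and it did not pass without centring or against the largest of the 4 backgrounds. In contacts, 1 pair passed 1.5-fold in favour of diestrus, against 2.67%, and 0 in favour of estrus, against 1.70%, the former being the pair within Arhgap42 in neighbouring bins. No pair in identical bins passed in either measure. Intervals of the strength ratio lay below 0 for 4 pairs, against 6.98%, and above 0 for 2, against 6.36%. The 2 above were the 370 kb loop from 8220001 into Trpc6, at 0.45 (0.02 to 0.88), and the loop from the bin behind Arhgap42 to the Arhgap42 start, at 0.40 (0.09 to 0.71). Without a second library per stage, differences of this size have no replicate check.

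**Figure D4:**
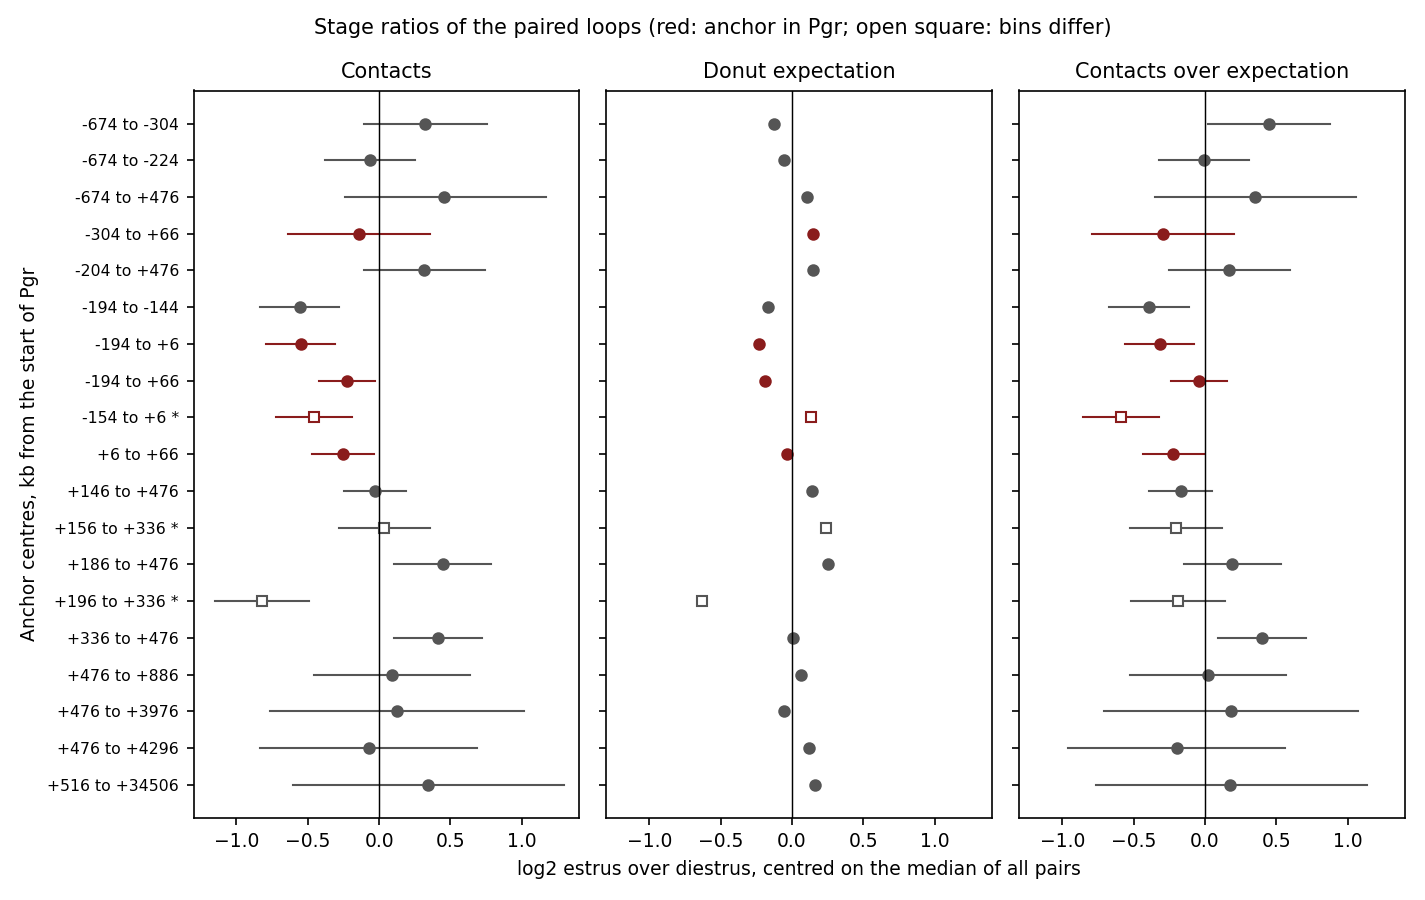
Centred log2 ratios, estrus over diestrus, of contacts, donut expectation and strength for the 19 paired loops, ordered by the anchors' distance from the start of Pgr in kb, with 95% counting intervals for contacts and strength. Red marks loops with an anchor in Pgr and open squares pairs in different bins. The 5 red points lie left of 0 for contacts and for strength, while for the expectation 3 lie left and 2 right.

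The gene end rule gave Pgr 4 loops in each library, since only its last base lies in an anchor. Of 21631 protein-coding genes, 4.54% in diestrus and 4.26% in estrus had at least 4 loops by this rule. Among 40 genes of the progesterone receptor pathway, 31 had a loop in either library, 13 with more in diestrus, 5 with more in estrus and 13 with equal numbers. That is 41.9% and 16.1% of those with a loop. Among all 9049 protein-coding genes with a loop, 33.5% had more in diestrus and 25.1% more in estrus. Over all protein-coding genes, loops or none, these shares were 14.0% and 10.5%. None of the 79 paired loops of the pathway genes, counted for each gene by this rule, passed 1.5-fold in strength, against 1.56% and 1.64% of all pairs in the 2 directions. The rule leaves out the loop from the 5′ anchor of Pgr into Gm32014, which did pass.

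Of the receptor and its 7 relatives, which had 14 loops in diestrus and 9 in estrus, 3 had more in diestrus and 0 in estrus. Pgrmc2, a membrane-associated protein and not a nuclear receptor, had 3 loops in diestrus and 0 in estrus, or 3 and 1 with gene ends within 5 kb. Among 10 chaperones and coregulators, with 23 and 19 loops, Nrip1, a corepressor of nuclear receptors, had 8 and 6, and Ncoa2, a coactivator, had 5 and 7. With gene ends within 5 kb, Nrip1 had 8 and 7 and Ncoa2 had 5 and 9. Among 22 regulators and targets of progesterone action, with 68 and 63 loops, 5 had more in diestrus, 4 more in estrus and 9 equal numbers. Of these, Bmp2, a decidual growth factor, had 9 and 5, and Fst, an inhibitor of activin, had 3 and 1. With gene ends within 5 kb the differences were smaller, at 9 and 7 for Bmp2 and 4 and 3 for Fst.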

How the data were processed

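Per the labels' protocols, chromatin contacts were captured with an Arima HiC kit, and each library was grouped by its labelled stage. The submitters' processing notes name Juicer and mm10, while aligner, versions and caller settings are not stated there. Per the file headers, both lists carry the columns of HiCCUPS, the loop caller of Juicer. Observed contacts and merged pixels are raw counts made by the authors. The 4 expected values are a signal of the authors' caller on the scale of raw contacts, and its q-values in the deposited lists reach 0.0955 in diestrus and 0.0991 in estrus. Anchor positions in the deposited lists are bases (other, not measurements) and are given 1-based. Contacts at called loops summed to 4533525 in diestrus and 4153485 in estrus; the full depth is not used here.

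Mutually nearest loops within the tolerance were paired, over all chromosomes. Intervals are exact Poisson for contacts, exact conditional for contact ratios, Clopper-Pearson for shares and binomial order statistics for medians, the last 2 treating loops as independent draws. Contacts carry no molecular identifiers, so copies of 1 molecule may be counted more than once. Genes came from RefSeq tables of GRCm38.p6, the assembly that mm10 names, and a gene has a loop where either of its ends lies in an anchor; all 40 pathway symbols matched. Genes named are Pgr, protein-coding genes of the window or of partner anchors of Pgr, and pathway genes differing by at least 2 loops; Gm32014, 1700128F08Rik and Cntn5 are outside this rule and were named, after the values were seen, because anchors lie in them. The members and lists were chosen with earlier results of these data known. The pairing and the intervals were tested on simulated data only. Those data had Poisson counts, anchors moved within the tolerance and no variation between libraries, so they cannot show how either behaves where libraries vary. Python 3.11.15, numpy 2.4.6, pandas 2.3.3 and scipy 1.17.1 were used.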

Additional observations from a re-analysis of the deposited data

How the results depend on the processing

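Of 78 values recomputed under other settings, 68 stayed within 1.5 times their main count or within the interval of the main value, and 10 did not. With only loops of at least 2 merged pixels, the window had 15 loops in diestrus and 15 in estrus. With ends of Pgr within 5 kb of an anchor, or any base of Pgr in an anchor, diestrus had 7 loops of Pgr in place of 4. Against the largest of the 4 backgrounds, the median strength in diestrus was 2.36, and the pairs past 1.5-fold were 1 in favour of estrus and 0 in favour of diestrus. Without centring, 0 pairs passed in favour of diestrus, and at a limit of 25% above equal strength 3 passed in favour of estrus and 2 in favour of diestrus. The median contact ratio of the paired Pgr loops lay between -0.32 and -0.24 under other centrings or with identical bins alone, settings that were chosen after seeing the data, as were the count of counting intervals and the limit of 400 contacts. No paired analysis was possible because each stage has 1 library. Loops with few contacts, such as those over 2 Mb, cannot show differences within their counting intervals.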

Other observations

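The far partners of the bin behind Arhgap42 were themselves joined to each other and to Cntn5. Between 12870001 to 12880000 and 13190001 to 13200000, over 320 kb, the diestrus list gave 67 contacts (51.9 to 85.1) and the estrus list 57 (43.2 to 73.9). The bin at the start of Cntn5, 10900001 to 10910000, was joined to 12870001 over 1970 kb by 73 diestrus (57.2 to 91.8) and 84 estrus contacts (67.0 to 104). It was joined to 13190001 by 73 diestrus contacts, while for estrus the neighbouring bin 10910001 to 10920000 was joined to it by 84. Loops from 10320001 to 10330000, within Cntn5, to 13190001 held 20 contacts (12.2 to 30.9) and 35 (24.4 to 48.7). The bin at 12870001 was an anchor of 4 diestrus and 5 estrus loops, and that at 13190001 of 5 in each list.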
